A study of Mus musculus with 8 samples.

Results

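The natriuretic peptides, their receptors and the angiotensin and endothelin genes were followed as a set of 10: Nppa, Nppb, Npr1, Npr2, Npr3, Agt, Agtr1a, Ace, Edn1 and Ednra. They were found by gene symbol in the array annotation, and 9 of the 10 were matched to a transcript cluster, the unit for which the array reports a value, out of 22206 clusters in all. Ednra was not matched and was not analysed here. Each of the 9 genes had a single cluster, so no choice between clusters was needed.

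The RNA came from mouse postnatal tail-tip fibroblasts (TTFs) that all carried retroviruses for the cardiac transcription factors Gata4, Hand2, Mef2c and Tbx5 (GHMT), a combination used to convert fibroblasts towards cardiomyocytes. Set 1 of the TTFs gave 4 arrays, of GHMT alone, GHMT with diclofenac (an inhibitor of cyclooxygenases, the enzymes that start prostaglandin synthesis), GHMT with an antagonist of the prostaglandin E2 (PGE2) receptor EP4, and GHMT with diclofenac plus PGE2. Set 2 gave 4 arrays, of GHMT alone and of GHMT with the EP4 antagonist, an inhibitor of TGFb or an inhibitor of Wnt. The agents were added together with the viruses. The labels list DMSO among the additions but do not name it in the titles of the GHMT arrays. GHMT and the EP4 antagonist thus had 2 arrays each and every other group 1, and untransduced fibroblasts were not analysed here. By its title, the series concerned how inhibition of cyclooxygenase-2, PGE2 and EP4 signalling bears on this conversion. The labels do not say whether the sets are separate experiments, so p-values measure only the spread between these samples.

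Atrial and B-type natriuretic peptide, encoded by Nppa and Nppb, are hormones of heart muscle that lower blood pressure and blood volume. Both are made as precursors, and the protease corin cuts the atrial precursor. They act through the guanylyl cyclase receptor Npr1, which makes cyclic GMP, while Npr2 is the related receptor for C-type natriuretic peptide and Npr3 clears the peptides from the extracellular space. The angiotensin system works in the opposite direction: angiotensinogen (Agt) is cut by renin and then by Ace to angiotensin II, which constricts vessels through Agtr1a. Endothelin-1 (Edn1) is a further vasoconstrictor peptide. Nppa is widely used as a marker of cardiac reprogramming and of the embryonic and stressed heart.

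The promoters of the 3 members that the results turn on are shown, and these members were picked after the values were seen. Nppa and Nppb lie side by side on chromosome 4, with no other annotated gene starting between them. With the TGFb inhibitor, in a single array, their differences from GHMT had opposite signs, which was not tested. With the EP4 antagonist and the Wnt inhibitor of the same set they shared a sign. Agt was the member that passed a test. The windows are the 250 bases before the annotated start, from RefSeq on GRCm38.p6. They lie at chr4:148000472-148000721 on the plus strand for Nppa, at chr4:147985650-147985899 on the plus strand for Nppb and at chr8:124569707-124569956 on the minus strand for Agt. Capitals mark matches on either strand to TGATAA or AGATAA, forms of the site bound by GATA factors, and to TATAAA, the TATA box.
Nppa: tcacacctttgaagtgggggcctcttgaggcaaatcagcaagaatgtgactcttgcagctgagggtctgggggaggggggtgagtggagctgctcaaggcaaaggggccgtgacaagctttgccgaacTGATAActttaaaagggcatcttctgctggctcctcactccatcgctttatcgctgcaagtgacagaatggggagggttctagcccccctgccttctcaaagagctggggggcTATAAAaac
Nppb: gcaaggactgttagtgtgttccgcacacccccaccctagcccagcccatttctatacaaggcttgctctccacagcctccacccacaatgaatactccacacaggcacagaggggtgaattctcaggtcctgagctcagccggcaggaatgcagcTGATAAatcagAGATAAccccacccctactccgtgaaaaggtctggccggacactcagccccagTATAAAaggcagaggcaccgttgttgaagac
Agt: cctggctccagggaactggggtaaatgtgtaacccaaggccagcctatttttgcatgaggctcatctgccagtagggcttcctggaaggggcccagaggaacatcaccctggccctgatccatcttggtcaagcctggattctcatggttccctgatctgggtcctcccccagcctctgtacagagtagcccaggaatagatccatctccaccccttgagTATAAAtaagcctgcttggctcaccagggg

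The Nppa window held 1 TGATAA, starting 122 bases before the annotated start. The Nppb window held 1 TGATAA, at 95 bases, and 1 AGATAA, at 84 bases. The Agt window held neither. Over all 32851 promoter windows of this length, 7.94% held TGATAA and 9.99% held AGATAA. All 3 windows held TATAAA, as did 12.4% of all windows. The T-box element AGGTGT was matched once in the Nppa window, on the minus strand, and in neither of the other two, against 11.8% of all windows. The core TGACG of the cyclic AMP response element (17.8% of windows) had no match in the 3 windows. E-boxes, CANNTG, occurred in all 3 and in 66.2% of windows. These matches describe letters only.

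Values are log2 expression values from the submitters, and a level at or below the background level of its array (5.73 to 5.99) is called at background. That level is the 95th percentile of 23 background probe sets, a rule chosen after the data were seen, and 43.7% to 45.7% of clusters lay above it. The number of arrays limits the precision. The median over all clusters was 5.28 to 5.29 in set 1 and 5.10 to 5.14 in set 2. All 10 matched fibroblast markers were above background in every array, and 6 or 7 of 10 cardiomyocyte markers were. Of the cardiomyocyte markers, Tnni3, Myl2 and Pln were at background in all 8 arrays. Of 6 smooth muscle markers, 5 or 6 were above background, led by Acta2 (18.32 to 19.12). None of the 8 endothelial markers exceeded background in any array, and of 6 macrophage and leukocyte markers only Lyz2 did, in the Wnt inhibitor array (6.47). In bulk RNA, fewer cells of a type and less RNA per cell cannot be told apart.

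**Figure D1:**
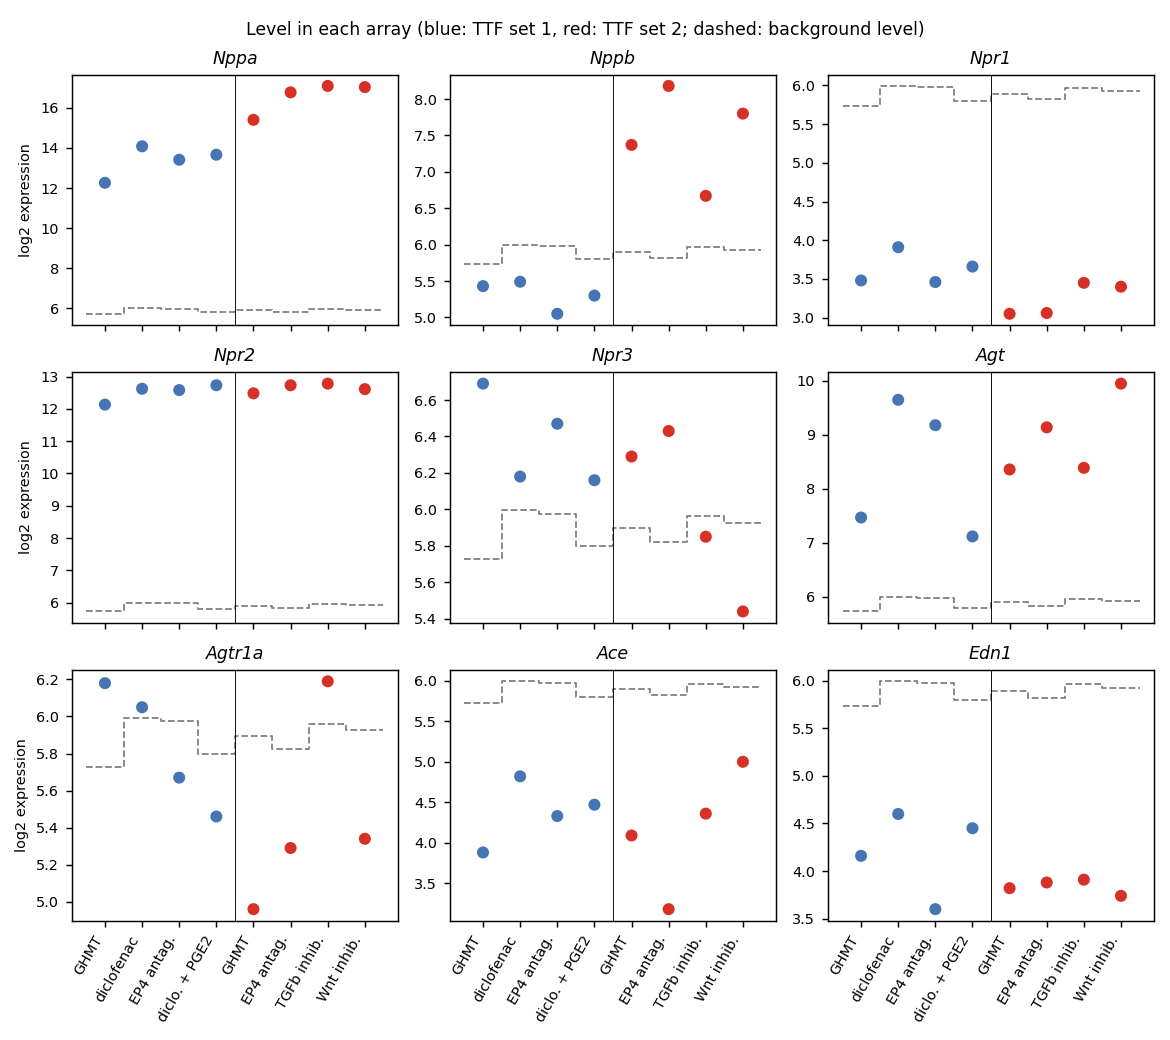
Log2 expression (vertical axis) of the 9 matched genes in each of the 8 arrays (horizontal axis), with TTF set 1 in blue, set 2 in red and the background level of each array as a dashed line; each point is 1 array and each panel has its own scale. Nppa, Npr2 and Agt lay above background in all 8 arrays, Npr3 in 6, Nppb in the 4 of set 2 and Agtr1a in 3, while Npr1, Ace and Edn1 lay below it throughout.

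Nppa, the gene of atrial natriuretic peptide, was higher than in GHMT of the same set in all 6 treated arrays, also where PGE2 had been added back. In set 1 its level was 12.26 in GHMT, 14.08 with diclofenac, 13.41 with the EP4 antagonist and 13.66 with diclofenac plus PGE2. In set 2 it was 15.40 in GHMT, 16.77 with the EP4 antagonist, 17.09 with the TGFb inhibitor and 17.03 with the Wnt inhibitor. GHMT was thus the lowest array of each set, and the arrays of set 1 did not overlap those of set 2. Nppa was 3.53-fold higher with diclofenac, 2.22-fold with the EP4 antagonist and 2.64-fold with diclofenac plus PGE2 than in GHMT of set 1. In set 2 it was 2.58-fold higher with the EP4 antagonist, 3.23-fold with the TGFb inhibitor and 3.10-fold with the Wnt inhibitor. A gene higher than GHMT in all 6 treated arrays was found for 5.46% of clusters, and these differences share the GHMT array of their set.

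The EP4 antagonist, the only treatment measured in both sets, gave 1.15 in set 1 and 1.37 in set 2 on the log2 scale, a gap of 0.22. Over the 9104 clusters above background in those 4 arrays, the median absolute gap was 0.31. Within set 1 the order was diclofenac, diclofenac plus PGE2, EP4 antagonist and GHMT, with steps of 0.42, 0.25 and 1.15. Each exceeded the gap of 0.22, but the step of 0.25 was below the median gap of 0.31. The gap of 0.22 is 1 value from 4 arrays, so it does not settle the order of single arrays. Within set 2 the TGFb and Wnt inhibitors were 0.06 apart, less than the gap of 0.22, and the EP4 antagonist lay 0.26 below the Wnt inhibitor and 1.37 above GHMT. The difference on adding PGE2 to diclofenac was -0.42, which ranked 2312 from the lowest of all clusters.

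Between the EP4 antagonist and GHMT (n = 2 each, TTF set as a block in limma), Nppa differed by 1.26 ± 0.20 (SE; adjusted p = 0.537), which missed the threshold. No member passed, and neither did any other of the 22206 clusters (0% called); 1243 clusters (5.6%) and 2 of the 9 members, Nppa and Agt, had an unadjusted p under 0.05. Without the block limma also called 0 clusters, with 144 clusters (0.648%) and 1 member, Agt, under 0.05 unadjusted. With a trend and robust prior it called 8 clusters (0.036%), none of them a member. A second comparison set the 3 arrays in which PGE2-EP4 signalling was inhibited (the EP4 antagonist in both sets and diclofenac) against the 3 in which it was active (both GHMT arrays and diclofenac plus PGE2). Here the Nppa difference was 0.98 ± 0.33 (adjusted p = 0.386 by limma). The diclofenac plus PGE2 array, counted as active, exceeded GHMT of set 1 by more than the EP4 antagonist array did, 2.64-fold against 2.22-fold. These arms pool different treatments, so their spread holds differences between treatments, and they share 4 arrays with the EP4 antagonist comparison.

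The TTF set went with a larger Nppa difference than any treatment did. Over the GHMT and EP4 antagonist arrays, set 2 exceeded set 1 by 3.25, or 9.51-fold (adjusted p = 0.0072 by limma). Of all clusters, 15.3% passed for the set, 7.45% higher and 7.8% lower in set 2. Over all 8 arrays the sets did not overlap for Nppa and Nppb, as for 38.9% of clusters, 12.9% in this direction. What else differed between the sets is not given in the sources used here. Summed cardiomyocyte marker levels did not follow this order, at 17.59 to 18.26 in set 1 and 17.30 to 18.05 in set 2. These sums are mainly Tnnt2, at 17.50 in GHMT of set 1 and 17.25 in GHMT of set 2. They therefore say little of the other markers.

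Nppb, the gene of B-type natriuretic peptide and the neighbour of Nppa, was detected only in set 2. Its levels in set 1 were 5.43 in GHMT, 5.49 with diclofenac, 5.05 with the EP4 antagonist and 5.30 with diclofenac plus PGE2, all at background. In set 2 they were 7.37 in GHMT, 8.18 with the EP4 antagonist, 6.67 with the TGFb inhibitor and 7.80 with the Wnt inhibitor. The set difference was 2.54 (adjusted p = 0.0153 by limma), with the set 1 arrays at background. Within set 2, Nppb was 1.75-fold higher with the EP4 antagonist, 1.35-fold higher with the Wnt inhibitor and 1.62-fold lower with the TGFb inhibitor than in GHMT. For the TGFb inhibitor the neighbours thus differed in sign, with Nppa at 1.69 and Nppb at -0.70 on the log2 scale. That contrast compares 1 array with 1, and the difference between the genes was not tested. The Nppb difference between the EP4 antagonist and GHMT was 0.22 ± 0.31 (adjusted p = 0.958 by limma).

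The receptors followed other patterns. Npr2, the receptor for C-type natriuretic peptide, had levels of 12.13 in GHMT, 12.62 with diclofenac, 12.58 with the EP4 antagonist and 12.73 with diclofenac plus PGE2 in set 1. In set 2 it was at 12.48, 12.73 with the EP4 antagonist, 12.78 with the TGFb inhibitor and 12.61 with the Wnt inhibitor. GHMT was the lowest array of each set for Npr2 as for Nppa, but the differences from GHMT were 0.13 to 0.60, below 2-fold. The EP4 antagonist difference was 0.35 ± 0.20 (adjusted p = 0.920 by limma). Within set 2 all neighbouring levels were at most 0.13 apart, less than the gap of 0.20 between its EP4 antagonist contrasts in the sets. The EP4 antagonist and TGFb inhibitor arrays of set 2 differed from GHMT by 0.25 and 0.30, more than that gap, with 1 array each.

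Npr3, the clearance receptor, lay close to background. Its levels were 6.69 in GHMT, 6.18 with diclofenac, 6.47 with the EP4 antagonist and 6.16 with diclofenac plus PGE2 in set 1, and 6.29 in GHMT and 6.43 with the EP4 antagonist in set 2. The TGFb inhibitor array (5.85) and the Wnt inhibitor array (5.44) were at background, which puts Npr3 at least 1.26-fold and at least 1.29-fold lower than in GHMT. Npr1, the receptor for atrial and B-type natriuretic peptide, was at background in all 8 arrays (3.05 to 3.91). The cultures with high Nppa values therefore gave no measurable signal for the Npr1 cluster. C-type natriuretic peptide itself, Nppc, was at background too (3.35 to 3.91).

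**Figure D2:**
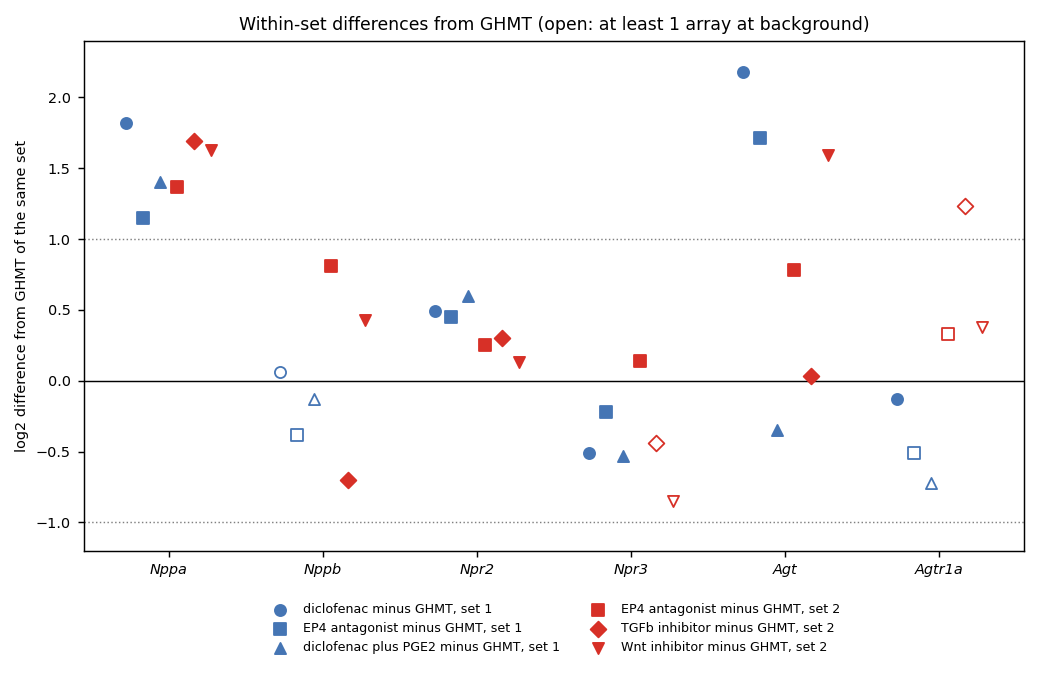
Log2 difference from GHMT of the same TTF set (vertical axis) for the 6 genes above background in at least 1 array (horizontal axis); each symbol is the difference of 1 array from 1, blue in set 1 and red in set 2, open where at least 1 of the arrays lay at background, and dotted lines mark 2-fold. All 6 Nppa points lie between 1.15 and 1.82, while the Agt points run from -0.35, with diclofenac plus PGE2, to 2.18, with diclofenac.

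Agt, the gene of angiotensinogen, was the member that separated the arrays by PGE2-EP4 signalling. In set 1 its level was 7.47 in GHMT and 7.12 with diclofenac plus PGE2, against 9.65 with diclofenac and 9.18 with the EP4 antagonist. In set 2 it was 8.36 in GHMT and 9.14 with the EP4 antagonist. The inhibited arrays (9.14 to 9.65) did not overlap the active ones (7.12 to 8.36), which held for 5.84% of clusters in either direction and for 2.75% in this one. Agt rose by 1.67 ± 0.27 with signalling inhibited, or 3.19-fold (n = 3 against 3, adjusted p = 0.0398 by limma with the TTF set as a block). It was the 1 member of 9 that passed, where 0.378% of all clusters did, 0.257% in this direction and 0.122% in the other. With a trend and robust prior 0.644% did, Agt among them. The difference was 2.12 within set 1 and 0.78 within set 2.

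The Agt call did not hold in every fit. Without the block its adjusted p was 0.900, as no cluster passed that fit, with 469 clusters (2.11%) under 0.05 unadjusted. Leaving out any of the 6 arrays ended it: the adjusted p was 0.0513 without GHMT replicate 1, 0.198 without diclofenac, 0.239 without EP4 antagonist replicate 1, 0.153 without diclofenac plus PGE2 and 0.0946 without either array of set 2. The difference stayed between 1.41 and 2.12 in these fits, each of which has fewer degrees of freedom. The EP4 antagonist alone gave 1.25 ± 0.27 (n = 2 each, adjusted p = 0.721 by limma), from 1.71 in set 1 and 0.78 in set 2. For that contrast the gap between the sets, 0.93, was close to the 95th percentile of the clusters above background, 1.04.

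Set 1 holds the add-back of PGE2, and Agt was among its largest differences. Agt was 4.53-fold higher with diclofenac than in GHMT, which ranked 7 from the highest of 22206 clusters. With the EP4 antagonist it was 3.27-fold higher and ranked 16. Adding PGE2 to diclofenac gave a level 5.78-fold lower than diclofenac alone, rank 12 from the lowest, and 1.27-fold below GHMT. Clusters at least 2-fold higher with diclofenac and with the EP4 antagonist, and at least 2-fold lower on adding PGE2 to diclofenac, numbered 53 (0.239%), a pattern defined after the Agt values were seen and from contrasts that share arrays. Markers of cardiomyocytes and of fibroblasts differed in several of the same contrasts. Of 10 cardiomyocyte markers, 4 rose with signalling inhibited (Myh6, Actc1, Myl7 and Mybpc3, all genes of the contractile apparatus), against 0.257% of all clusters. The median difference of the 10 was 0.76. On adding PGE2 to diclofenac the median of the 10 was -1.11, and 5 were at least 2-fold lower (2.16% of clusters differed by as much). In set 1 the summed level of the 10, led by Tnnt2, was 17.59 in GHMT and 18.26 with diclofenac. It was 18.24 with the EP4 antagonist and 18.00 with diclofenac plus PGE2. With the TGFb inhibitor, where Agt differed from GHMT by 0.03, 8 of the 10 were at least 2-fold higher, with a median of 1.32. Among the 8, Tnni3 and Myl2 were at background in both arrays and Myh6 in GHMT. Of all clusters, 5.36% were at least 2-fold apart in this contrast. With diclofenac plus PGE2, where Nppa was 2.64-fold above GHMT, the median of the 10 cardiomyocyte markers was -0.48. The 10 fibroblast markers were all below GHMT with diclofenac (median -0.81, 2 of them at least 2-fold lower). They were so too with the EP4 antagonist of set 1 (median -0.72, 4 at least 2-fold lower). Of all clusters, 1.81% and 1.6% were at least 2-fold apart in these contrasts. On adding PGE2 to diclofenac 7 of the 10 were higher (median 0.38). In set 2 with the EP4 antagonist 5 were higher and 5 lower (median 0.10), and between inhibited and active arrays their median difference was -0.46. The part of either marker list in the Agt and Nppa differences was not tested.

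**Figure D3:**
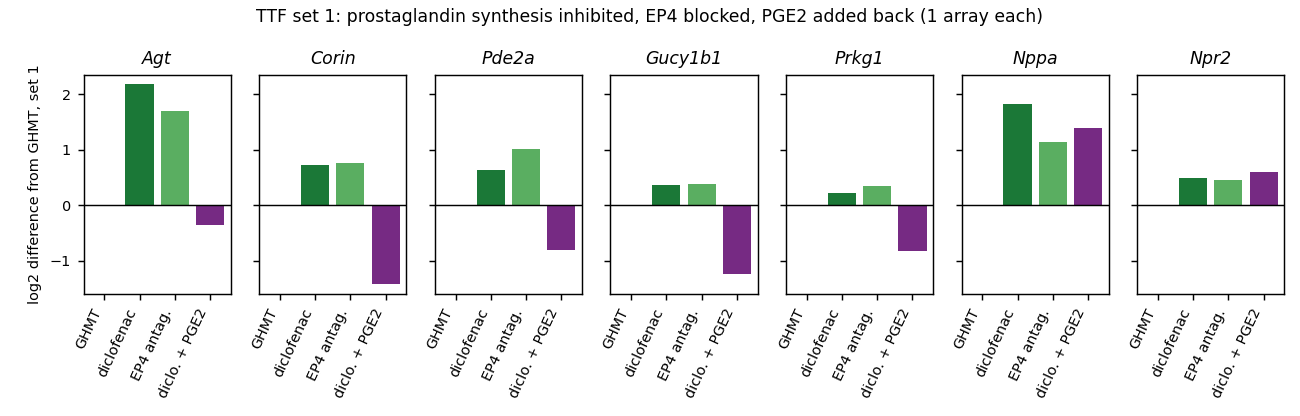
Log2 difference from GHMT of set 1 (vertical axis) for diclofenac, the EP4 antagonist and diclofenac plus PGE2 (horizontal axis), 1 array per bar and GHMT at 0; Corin and Pde2a were at background with diclofenac plus PGE2, so those bars give the measured value only. Agt, Corin, Pde2a, Gucy1b1 and Prkg1 lay above GHMT with diclofenac and the EP4 antagonist and below it with diclofenac plus PGE2. Nppa and Npr2 stayed above GHMT in all 3. The genes shown are a choice: of the natriuretic peptide list, Furin and Ide, not shown, lay above GHMT in all 3, and Mme and Pde5a below it. Prkg2, also not shown, had the reverse pattern. It was at 6.69 in GHMT, 6.54 with diclofenac, 5.89 (at background) with the EP4 antagonist and 6.86 with diclofenac plus PGE2.

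The other inhibitors of set 2 split Agt as well. With the Wnt inhibitor Agt was at 9.95, its highest level in the series and 3.01-fold above GHMT, and with the TGFb inhibitor it was at 8.39, 1.02-fold above GHMT. Nppa was about equally high in both arrays, at 17.03 and 17.09. Within set 2 the steps between neighbouring Agt levels were 0.81, 0.75 and 0.03, none larger than the gap of 0.93 between its EP4 antagonist contrasts. The Wnt inhibitor array differed from GHMT by 1.59, more than that gap, with 1 array each. A limma fit of all 8 arrays, with treatment and TTF set as terms, gives a test for single arrays if all groups are assumed to vary like GHMT and the EP4 antagonist. In it no member passed: Nppa had adjusted p = 0.0896 with TGFb inhibition and 0.182 with Wnt inhibition, where 0.464% and 0.122% of clusters were called, and Agt had 0.249 with Wnt inhibition. For adding PGE2 to diclofenac, where 0% of clusters were called, the adjusted p of Agt was 0.455 in this limma fit.

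The remaining members gave little signal. Agtr1a, the receptor for angiotensin II, was above background in GHMT (6.18) and with diclofenac (6.05) of set 1 and with the TGFb inhibitor of set 2 (6.19). In the other arrays it lay at background, at 5.67 with the EP4 antagonist and 5.46 with diclofenac plus PGE2 in set 1, and at 4.96 in GHMT, 5.29 with the EP4 antagonist and 5.34 with the Wnt inhibitor in set 2. It was therefore at least 1.23-fold higher with the TGFb inhibitor than in GHMT of set 2. Ace, which makes angiotensin II, was at background in all 8 arrays (3.18 to 5.00), and so was Edn1 (3.60 to 4.60). Both genes are known for expression in endothelium, whose markers were at background here as well. The reason for the low Ace and Edn1 levels was not tested.

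At 2-fold or more from GHMT were 2 of 9 members for diclofenac (1.81% of clusters), 2 for the EP4 antagonist in set 1 (1.6%) and 1 in set 2 (2.74%), and 1 for diclofenac plus PGE2 (1.81%). For the TGFb inhibitor 2 of 9 were, with Agtr1a at background in GHMT (5.36%), and for the Wnt inhibitor 2 of 9 (4.1%). Adding PGE2 to diclofenac moved 1 of 9 by as much, Agt (2.16%). All but this last were higher, and these were Nppa in all 6 contrasts with GHMT, Agt in 3 of them and Agtr1a in 1. The median difference of the 9 members was 0.44 for diclofenac, -0.02 and 0.25 for the EP4 antagonist in sets 1 and 2, 0.18 for diclofenac plus PGE2, 0.27 with TGFb inhibition and 0.38 with Wnt inhibition. The median over all clusters was between -0.02 and 0.00 in these contrasts.

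Other genes of natriuretic peptide and cyclic GMP signalling were taken from a list of 13, of which 12 were matched and 9 above background in at least 1 array. With PGE2-EP4 signalling inhibited, 1 of 12 rose and 0 fell, where 0.257% of all clusters rose and 0.122% fell. The median difference was 0.15, against -0.01 over all clusters. The gene was Pde2a, a phosphodiesterase that degrades cyclic AMP and is activated by cyclic GMP, which rose by 1.51 ± 0.25 (n = 3 against 3, adjusted p = 0.0444 by limma with the block). Its levels in set 1 were 6.21 in GHMT, 6.85 with diclofenac, 7.22 with the EP4 antagonist and 5.41 with diclofenac plus PGE2, the last at background. In set 2 they were 5.62 in GHMT, at background, 7.70 with the EP4 antagonist, 7.57 with the TGFb inhibitor and 7.72 with the Wnt inhibitor. With the EP4 antagonist Pde2a was thus at least 3.49-fold higher in set 2 and 2.01-fold higher in set 1. Without the block its adjusted p was 0.900. The call was kept without GHMT replicate 1 (0.0042) and lost without any of the other 5, with adjusted p from 0.133 to 0.283.

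Corin, the protease that activates pro-atrial natriuretic peptide, was, like Agt, lowest in set 1 with diclofenac plus PGE2. Its levels there were 6.24 in GHMT, 6.97 with diclofenac and 7.01 with the EP4 antagonist, and 4.83, at background, with diclofenac plus PGE2, at least 2.25-fold below diclofenac alone. In set 2 only the Wnt inhibitor array (6.05) exceeded background. The inhibited arrays differed from the active ones by 1.31 ± 0.30 (adjusted p = 0.147 by limma). Gucy1b1, a subunit of the nitric oxide-sensitive guanylyl cyclase, had levels of 11.87 in GHMT, 12.23 with diclofenac, 12.26 with the EP4 antagonist and 10.63 with diclofenac plus PGE2 in set 1. In set 2 it was at 9.54 in GHMT, 10.52 with the EP4 antagonist, 11.34 with the TGFb inhibitor and 11.36 with the Wnt inhibitor. Adding PGE2 to diclofenac went with a 3.03-fold lower Gucy1b1 level, and the difference between the arms was 0.99 ± 0.27 (adjusted p = 0.245 by limma). Prkg1, a kinase that cyclic GMP activates, was 2.07-fold lower on adding PGE2 to diclofenac and was picked after its values were seen. Prkg2, of the same list, was 1.25-fold higher in that contrast. Mme, or neprilysin, which degrades natriuretic peptides, was 4.99-fold higher with the Wnt inhibitor and 2.58-fold higher with the TGFb inhibitor than in GHMT. Pde5a, which degrades cyclic GMP, was at least 1.76-fold higher with the TGFb inhibitor.

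Of 15 further genes of the renin-angiotensin system, 11 were matched and 6 were above background in at least 1 array. None passed between the inhibited and active arrays (median 0.09). The 2-fold differences from GHMT above background were all in set 2. Anpep, an aminopeptidase that trims angiotensin peptides, was at 12.30 in GHMT, 12.41 with the EP4 antagonist, 15.57 with the TGFb inhibitor and 13.63 with the Wnt inhibitor, so 9.65-fold and 2.51-fold higher with the TGFb and Wnt inhibitors. Agtrap, a protein that binds the angiotensin receptor, was 2.04-fold higher with the TGFb inhibitor, and Enpep, which removes the first residue of angiotensin II, at least 1.34-fold.

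Of 11 further endothelin genes, 10 were matched and 7 above background. None passed (median -0.14). Edn2 and Edn3 were at background in all arrays, like Edn1. Ednrb, an endothelin receptor, was detected in every array: at 11.17 in GHMT, 10.29 with diclofenac, 10.66 with the EP4 antagonist and 9.85 with diclofenac plus PGE2 in set 1, and at 9.20 in GHMT, 8.66 with the EP4 antagonist, 9.04 with the TGFb inhibitor and 11.75 with the Wnt inhibitor in set 2. Its highest level was 5.86-fold above GHMT of that set, and the diclofenac plus PGE2 level differed from GHMT by -1.32 on the log2 scale. Plcb4, a phospholipase downstream of such receptors, was 2.35-fold lower with diclofenac and 2.01-fold lower with the EP4 antagonist in set 1. Its difference between the inhibited and active arms was -0.83 ± 0.17 (adjusted p = 0.103 by limma). Rcan1, a regulator of calcineurin, was 2.55-fold higher with diclofenac.

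**Figure D4:**
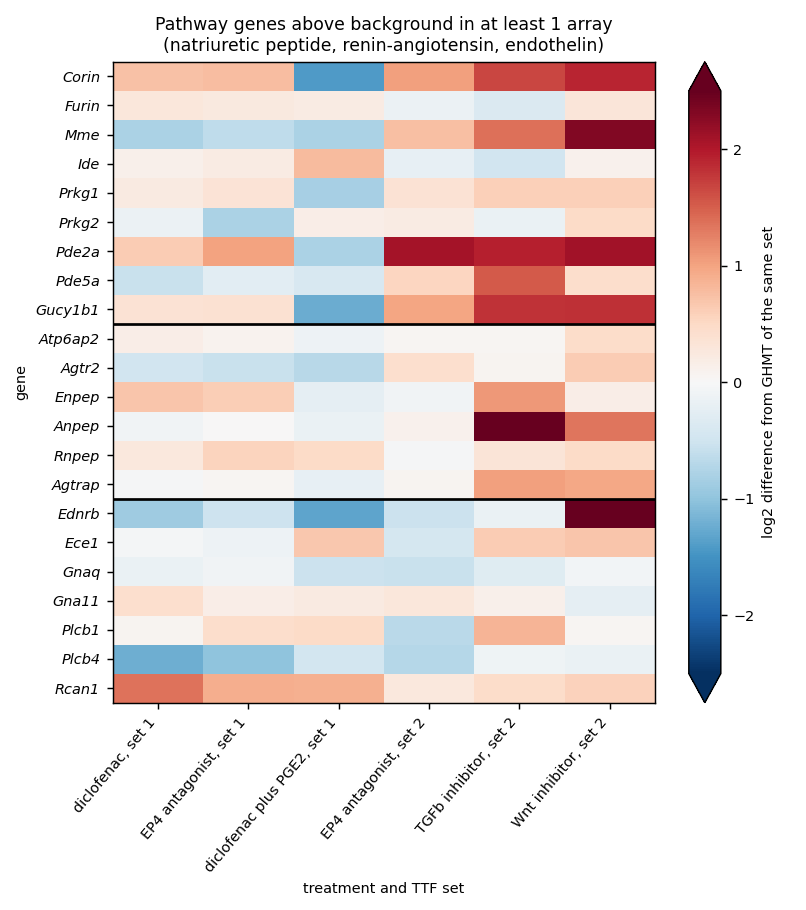
Log2 difference from GHMT of the same TTF set (colour scale, saturated at its ends) for the pathway genes above background in at least 1 array (rows, with lines between the natriuretic peptide, renin-angiotensin and endothelin lists) in the 6 treated arrays (columns); each cell is 1 array against 1. Pde2a, Gucy1b1, Corin, Prkg1 and Atp6ap2 were above GHMT in every treated array other than diclofenac plus PGE2. Anpep was highest with the TGFb inhibitor and Ednrb with the Wnt inhibitor. Some cells rest on levels at background, among them those of Pde2a and Corin in set 2, where GHMT was at background.

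The genes most like a member were taken as those with the smallest mean absolute deviation from its 6 within-set differences from GHMT, over 9913 other symbols above background in at least 1 array. For Agt they were Rbm20, a splicing factor of titin (mean deviation 0.29), Sorbs2, an adaptor of the Z-disc (0.33), and Cd93 (0.44). Rbm20 was at 1.70 with diclofenac, 1.72 with the EP4 antagonist and -0.53 with diclofenac plus PGE2 in set 1, and at 1.04 with the Wnt inhibitor, 0.33 with the EP4 antagonist and 0.07 with the TGFb inhibitor in set 2. For Nppa the nearest were Popdc2, a membrane protein of heart and muscle (0.50), Rcan2 (0.54) and Mmp12 (0.55), all farther off than the Agt neighbours. Mmp12 exceeded background only with the EP4 antagonist (6.75) and the Wnt inhibitor (6.64) of set 2, so its differences rest on GHMT levels at background. Rcan2 was at -0.06 and Popdc2 at 0.59 with diclofenac plus PGE2, both below Nppa. For Agtr1a, mostly at background, they were Ddr1 (0.09), Otub2 (0.10) and Itgb8 (0.13). All of these differences use the same 8 arrays.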

How the data were processed

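Clariom S Mouse arrays (Affymetrix) measured biotin-labelled total RNA of 8 cultures. The deposited log2 values were made by the authors with SST-RMA in Affymetrix Expression Console 1.4, per the submitters' design text and processing notes; neither a joint normalization of the TTF sets nor a genome build is given in the sources used here. Of 28846 rows, 6640 controls were left out. Symbols came from the platform annotation: 19572 clusters had 1 symbol, none had several and 2634 were unnamed here.

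Groups followed the titles. Differences were taken within a TTF set, or by limma 3.58.1 (lmFit, eBayes) in R 4.3.3, two-sided, with the TTF set as a block and Benjamini-Hochberg adjusted p under 0.05 over all 22206 clusters. The fits were tested on simulated data. The set number was used as a pairing because it numbers the fibroblasts in the titles; arrays of one set correlated at 0.986 to 0.995 and arrays of different sets at 0.974 to 0.984, and the deviations of GHMT and the EP4 antagonist from their group means correlated (r = 0.724 across clusters). Folds are 2 to the power of a log2 difference; where the dimmer array was at background, the fold is a lower bound against the background level ("at least"), and where both were, none is given.

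The members, gene lists and tests were chosen with earlier results of these data known, among them the counts of calls with the block (84 clusters between inhibited and active arrays) and without it (0). Named genes were the members, pathway genes above background and at least 2-fold from GHMT or past a test, and the 3 most alike genes of each member at 2-fold. Prkg1 and Prkg2 lie outside this rule, as do genes named only in a caption. Motifs were searched on both strands of RefSeq promoters (GRCm38.p6; 9 of 10 members matched, Agtr1a not).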

Additional observations from a re-analysis of the deposited data

Results flagged for a closer look

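The EP4 antagonist contrast had opposite signs in the 2 TTF sets for 3 members above background in at least 1 of its 4 arrays, with 1 array per arm in each set, and the difference between the sets was not tested. Nppb was at -0.38 in set 1, where both arrays were at background, and at 0.81 in set 2. Npr3 was at -0.22 in set 1 and at 0.14 in set 2, both smaller than the median gap between the sets of 0.31. Agtr1a was at -0.51 in set 1 and at 0.33 in set 2, where both arrays were at background.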

How the results depend on the processing

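The count of members past the threshold was 0 for the EP4 antagonist under each alternative with a test: no replicate block, quantile normalization, a background filter, and a trend and robust prior. Leaving out 1 of its arrays left no residual degree of freedom and gave values only. Between inhibited and active arrays the count was 1 under quantile normalization, the filter and the trend and robust prior (adjusted p of Agt 0.044, 0.0291 and 0.015). It was 0 with no replicate block and between 0 and 0 when each array was left out in turn. In the same comparison, differences that missed the threshold changed sign when an array was left out: over these fits Nppb ran from -0.09 to 0.42, Npr1 from -0.06 to 0.20, Npr3 from -0.15 to 0.15, Agtr1a from -0.04 to 0.37, Ace from -0.33 to 0.40 and Edn1 from -0.38 to 0.19; for the EP4 antagonist Npr1 went to 0.00 after quantile normalization. The cause was not tested. At 1.5-fold the count of members was 4 for diclofenac plus PGE2, for the EP4 antagonist in set 2 and for the Wnt inhibitor. For adding PGE2 to diclofenac it was 2. The share of all clusters at 1.5-fold was not computed, so these counts cannot be set against it. Each count of 4 included Ace (0.59, -0.91 and 0.91), at background in both arrays. Agtr1a with diclofenac plus PGE2 and Npr3 with the Wnt inhibitor were at background in the treated array. With the 8-array fit and the TTF set as a replicate block, the count of members past the threshold was 0 in each contrast. At 2-fold, quantile normalization moved the diclofenac count from 2 to 3, with Ace, at background, going from 0.94 to 1.04; it moved none of the other counts at 2-fold, and median centring moved none. Against a level chosen after seeing the data, the 95th percentile of 5222 probe sets named as negative (8.44 to 9.02), 3 members rather than 6 exceeded it in at least 1 array: Nppa, Npr2 and Agt.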
